A study of Mus musculus with 27 samples.

Results

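The 6 genes described here, Myo7a, Ush1c, Ush1g, Cdh23, Pcdh15 and Clrn1, are mouse counterparts of genes of human Usher syndrome, in which deafness is joined by degeneration of the retina. They were taken as the entries of the deposited table whose symbol equals one of these names, 6 of the 38168 features listed, each with 1 entry. A filter of at least 1 cpm, the reads of a feature scaled to the total of its library, in at least 3 libraries left 31760 features for testing, among them 5 of the 6 genes. Ush1c never reached 1 cpm in any library and was not tested. Ush1g passed the filter through its libraries of P6 and later alone, so that it had to differ between ages, and the number of tested genes that changed is therefore not read as support for anything.

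RNA-seq was performed on whole retinas of wild type C57BL/6J mice, kept in a 12 h light and 12 h dark cycle and sampled in the light phase. Libraries represented 7 ages, with 3 at embryonic day 14 (E14), 3 at E17, 4 at postnatal day 1 (P1), 3 at P6, 4 at P15, 4 at P28 and 6 at P60. According to the methods, samples up to P1 were of mixed sex and later samples were males, libraries came from pooled animals, and at P60 pools and single mice were both used, without a statement of which library is which. The labels give 3 retinas for each library, which differs from the larger pools in the methods. Libraries held 7077781 to 11332323 counted reads, totals recovered from the scaling of the cpm values. At P60, replicates 1 and 2 stood apart from replicates 3 to 6 across genes, where the chi-square of their counts divided by its degrees of freedom was 8.36 to 21.5 between the 2 sets, 3.29 within the first and 4.62 to 9.31 within the second, beside 1.72 to 8.22 between libraries of one age elsewhere. Limma comparisons with P60 were therefore repeated without those 2 libraries. No called change of the 5 tested genes was lost, values that moved are given beside the results, and the cause of the split was not tested. Sex, pool size and age cannot be told apart in this design where they change together, and p-values measure the spread between these libraries only.

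All but one of these genes encode proteins that work in one adhesion and transport assembly in the hair cells of the inner ear. Cadherin 23 and protocadherin 15 form the tip links that join neighbouring stereocilia, and harmonin (Ush1c) and Sans (Ush1g) are scaffolds of the assembly. Myosin VIIa is the motor that carries or tenses the assembly, while clarin-1 is a small membrane protein needed for the upkeep of the hair bundle. In the retina these proteins have been placed at the calyceal processes around photoreceptor outer segments, at the connecting cilium, at synapses and, for myosin VIIa, also in the retinal pigment epithelium (RPE), the pigmented layer behind the photoreceptors. The C57BL/6J strain carries a splice-altering allele of Cdh23 that leads to age-related hearing loss.

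Mature retina (P15, P28 and P60) had 15.6-fold more Pcdh15 than embryonic retina (E14 and E17) as the ratio of the means of age means, 683 against 43.7 cpm. Clrn1 was 3.05-fold, Cdh23 2.02-fold and Myo7a 1.76-fold higher by the same measure. Ush1g had 268 reads in the 14 mature and 6 reads in the 6 embryonic libraries, a ratio of 24.8 in cpm (exact 95% interval for counting error, 11.2 to 68.1), and Ush1c went the other way at very few reads. On the log2(cpm + 1) scale, which understates the change of low genes, limma gave 4.10 (SE 0.05, adjusted p = 3.99e-35) for Pcdh15, 1.66 (SE 0.13, adjusted p = 1e-12) for Ush1g, 1.34 (SE 0.13, adjusted p = 9.8e-11) for Clrn1, 0.70 (SE 0.11, adjusted p = 6.75e-07) for Myo7a and 0.57 (SE 0.17, adjusted p = 0.00356) for Cdh23. All 5 tested genes passed at an adjusted p under 0.05, beside 75.4% of all features tested, so a call in this comparison was common. All mature libraries lay above all embryonic ones for Pcdh15 and Ush1g, and 40.4% of all features had groups that did not overlap. For Myo7a, Cdh23 and Clrn1 the 2 groups of libraries overlapped. In whole retina, fewer cells of a type and less RNA per cell cannot be told apart.

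**Figure D1:**
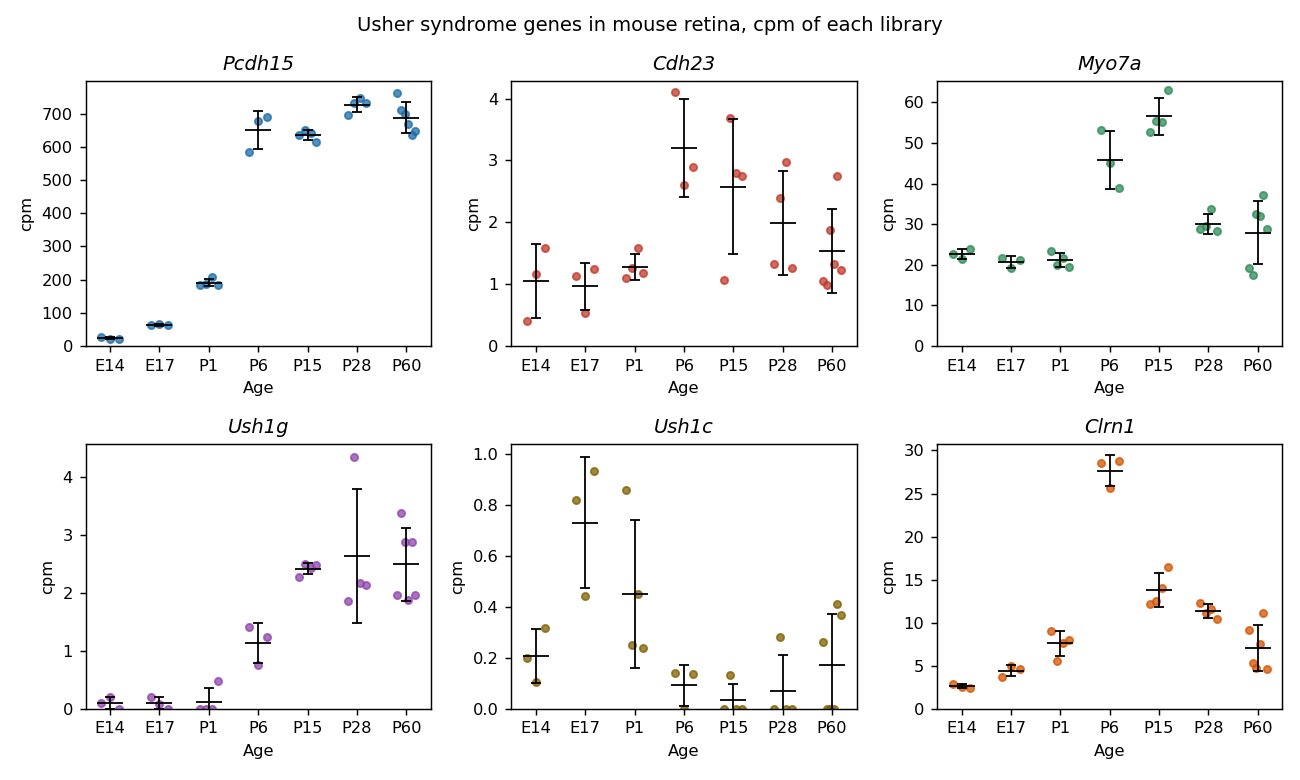
Expression of the 6 genes in each library (points, cpm, linear axes from 0 with a scale of its own in each panel) by age, with the mean and SD of each age in black (n = 3, 3, 4, 3, 4, 4 and 6 libraries). Pcdh15 climbed from a mean of 23.6 cpm at E14 to 651 cpm at P6 and stayed there, Clrn1 was highest at P6 and Myo7a at P15, and Ush1c stayed under 1 cpm.

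Myo7a (Gene ID 17921) encodes the motor protein of the group. It lies on chr7:98051060-98119524 of GRCm38, on the minus strand, and its annotated exons cover 8566 bases. Its level was 22.6, 21.5 and 23.9 cpm in the 3 libraries at E14, 21.8, 19.1 and 21.1 cpm at E17, and 23.3, 20.04, 21.6 and 19.4 cpm at P1. These 10 libraries lay within one narrow band. The level was then 53.3, 45.1 and 38.9 cpm at P6, 52.6, 55.4, 55.1 and 63.0 cpm at P15, and 28.8, 29.6, 33.7 and 28.3 cpm at P28. At P60 it ran from 17.6 to 37.1 cpm with a median of 30.4 cpm. Every P6 library lay above every P1 library, every P28 library lay below every P15 library, and the P60 libraries spread from below the embryonic range to above the P28 range. The mean was 2.17-fold higher at P6 than at P1 (log2 difference 1.07, SE 0.17, limma adjusted p = 3.37e-06). It fell from 56.5 ± 4.5 cpm (SD, n = 4) at P15 to 30.1 ± 2.5 cpm (SD, n = 4) at P28, a log2 difference of -0.89 (limma adjusted p = 0.000553). In the order of levels, P15 came before P6 at a difference of 0.31 that was not called over all ages (limma adjusted p = 0.162) but was in the fit of those 2 ages alone (adjusted p = 0.0266) and without P60 replicates 1 and 2 (adjusted p = 0.0204). P6 lay above P28 (log2 difference 0.58, limma adjusted p = 0.00615, a comparison in which 36.6% of all features were called), and P28, P60, E14, P1 and E17 followed with no call between neighbours. Over wider distances in this order, P28 lay above E14 by 0.39, E17 by 0.52 and P1 by 0.49 (limma adjusted p = 0.0396, 0.00789 and 0.00647), with all P28 libraries higher in each case, where 65.2%, 60.6% and 60.5% of features were called. P60 lay above E17 and P1 by 0.37 and 0.34 with overlapping libraries (limma adjusted p = 0.0366 and 0.0327), where 66.4% and 67.3% were called. Among neighbours, P60 and E14 differed by 0.24 (limma adjusted p = 0.167) where 69.3% of features were called, and E14 and P1 by 0.10 (limma adjusted p = 0.717) where 27.8% were. Without P60 replicates 1 and 2 the P60 mean was 32.6 ± 3.4 cpm (SD, n = 4), and P60 then lay above E14 by 0.50, E17 by 0.63 and P1 by 0.60 (limma adjusted p = 8.76e-05, 3.43e-06 and 1.83e-06). It then also had a higher mean than P28, by 0.11 (limma adjusted p = 0.408), and mature against embryonic retina gave 0.79 (adjusted p = 2.39e-12).

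Markers of RPE and pigment cells were set beside Myo7a across ages. The summed level of the 11 markers averaged 8.31 cpm at E14, 9.74 at E17, 16.9 at P1, 42.9 at P6 and 91.4 at P15. It then averaged 56.8 at P28 and 49.8 at P60, and like Myo7a it was highest at P15. The mean sum had already risen by P1, while Myo7a stayed within one narrow band from E14 to P1. From P6 to P15, 4 of the 10 tested markers were called higher, 0 lower, and 6 were not called. Between mature and embryonic retina 7 of the 10 tested markers were higher, beside 75.4% of all features called in either direction. Some of them had no library at 1 cpm from E14 to P1 and passed the filter through later ages alone. These had to differ, so the count is not read as support for anything. Mlana, a melanosome protein, was at or under 3 reads in every library. Within P60 Myo7a and the marker sum did not go together. Replicates 1 and 2 had the lowest Myo7a (19.3 and 17.6 cpm) beside marker sums of 51.0 and 89.7 cpm. The other 4 libraries had 28.9 to 37.1 cpm of Myo7a beside sums of 24.3 to 51.7 cpm. The part of RPE in the level of Myo7a was not tested.

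Harmonin, the scaffold encoded by Ush1c (Gene ID 72088, chr7:46195350-46238503, minus strand, GRCm38), was close to the limit of detection throughout. Counts were 1 to 3 reads per library at E14, 5 to 9 at E17, 2 to 7 at P1, 0 to 1 both at P6 and at P15, 0 to 2 in the P28 libraries and 0 to 3 in those of P60. The E17 libraries were all above the E14 libraries and all P6 libraries were below all P1 libraries. Summed over libraries, E17 had 22 reads and the 14 mature libraries had 11, a ratio of 7.0 in cpm (exact 95% interval 3.25 to 15.99), and E17 against E14 gave 3.45 (1.36 to 10.4). E17 against P1 gave 1.59 (0.789 to 3.30), an interval that includes 1. These intervals cover counting error only. An antisense entry, Gm9860, overlaps Ush1c and averaged at most 0.303 cpm at any age. Whether counting used the strand is not given in the sources used here, so reads of the 2 cannot be told apart.

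Ush1g (Gene ID 16470, chr11:115315192-115322041, minus strand, GRCm38) encodes Sans, the scaffold that binds harmonin and myosin VIIa. Its counts were 0 to 2 reads per library at E14 and at E17 and 0 to 4 at P1, at or near a floor of 3 reads. They were 7 to 10 reads in the P6 libraries, 17 to 20 in those of P15, 14 to 31 in those of P28 and 15 to 24 in those of P60. Every library from P6 on lay above every earlier library, and every P15 library above every P6 library. Otop2, on the opposite strand, overlaps Ush1g and averaged 0.0351 cpm at E14, 0.0294 at E17 and 0.0578 at P1, then 0.404 at P6, 0.397 at P15, 0.241 at P28 and 0.184 at P60. Its means from P6 on were thus above the earlier ones too, and without the strand its reads cannot be told apart from those of Ush1g where the 2 overlap. In summed reads, P6 against P1 gave a ratio of 9.20 in cpm (26 against 4 reads, exact 95% interval 3.19 to 36.3) and P15 against P6 a ratio of 2.20 (1.39 to 3.58). Limma called both steps, with log2 differences of 0.94 (adjusted p = 0.000449) and 0.69 (adjusted p = 0.01). The step to P15 was lost without P6 replicate 2 (adjusted p = 0.0791), with a pseudocount of 0.1 (adjusted p = 0.125) and by the quasi-likelihood test of edgeR applied to recovered reads (adjusted p = 0.0523). Means at P15, P28 and P60 were 2.42 ± 0.10, 2.63 ± 1.16 and 2.49 ± 0.64 cpm (SD, n = 4, 4 and 6), and no call separated these ages, P60 against P15 included (limma adjusted p = 0.973), a comparison in which 28.1% of all features were called. At P1, E14 and E17 the gene stood at 0.118, 0.104 and 0.0976 cpm, with log2 differences of at most 0.01 between neighbours in the order.

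Protocadherin 15, the lower strand of the tip link, is encoded by Pcdh15 (Gene ID 11994), a gene of 1550 kb on chr10:73099342-74649737, plus strand, GRCm38. With a mean of 465 cpm over all libraries it held rank 168 among all listed features. It was at 26.7, 21.9 and 22.1 cpm at E14, 62.5, 66.7 and 62.4 cpm at E17, and 183, 188, 209 and 185 cpm at P1. It reached 586, 678 and 689.8 cpm at P6, 635, 649, 640.3 and 614 cpm at P15, and 696, 731, 747 and 732 cpm at P28. The P60 libraries ran from 636 to 761 cpm with a median of 685 cpm. No library of E14, E17 or P1 lay within the range of another age, while the P60 range overlapped those of P6, P15 and P28 and every P28 library lay above every P6 and P15 library. The mean rose 2.71-fold from E14 to E17 (log2 difference 1.40, SE 0.08, limma adjusted p = 8.37e-15), 2.99-fold from E17 to P1 (1.57, SE 0.07, adjusted p = 2.14e-16) and 3.41-fold from P1 to P6 (1.76, SE 0.07, adjusted p = 5.5e-19). It thus stood at 3.25% of its P28 mean at E14, 8.79% at E17, 26.3% at P1 and 89.6% at P6.

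After P6 the level of Pcdh15 showed no called change. The step from P6 to P15 was -0.03 on the log2 scale (95% interval -0.18 to 0.12), that from P15 to P28 was 0.19 (0.06 to 0.33, limma adjusted p = 0.138) and that from P28 to P60 was -0.08 (-0.21 to 0.04), or -0.13 (limma adjusted p = 0.0861) without P60 replicates 1 and 2. The step from P15 to P28 passed the threshold in the fit of those ages alone (limma adjusted p = 0.0429). In the order of levels P28, P60, P6 and P15 were not separated, with P60 against P6 at an adjusted p of 0.346 in limma where 49.4% of all features were called. P15 lay above P1 by 1.73 (limma adjusted p = 3.11e-20), a comparison in which 60.3% of features were called.

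Cdh23 (Gene ID 22295, chr10:60302748-60696490, minus strand, GRCm38) encodes cadherin 23, the upper strand of the tip link and the partner of protocadherin 15. It was scarce, at 4 to 29 reads per library. It had 0.400, 1.16 and 1.58 cpm at E14, 1.12, 0.529 and 1.24 cpm at E17 and 1.10, 1.26, 1.58 and 1.18 cpm at P1. At P6 it had 4.10, 2.596 and 2.896 cpm, above every earlier library. Later libraries spread widely, over 1.07 to 3.69 cpm at P15, 1.26 to 2.98 cpm at P28 and 0.986 to 2.75 cpm at P60 with a median of 1.28 cpm. The mean at P6 was 2.49-fold that at P1 (log2 difference 0.87, SE 0.27, limma adjusted p = 0.00949), a call lost without P6 replicate 1 (adjusted p = 0.0687). From P6 the age means stood in the order P6, P15, P28 and P60, at 3.20 ± 0.79, 2.58 ± 1.09, 1.99 ± 0.84 and 1.54 ± 0.67 cpm (SD, n = 3, 4, 4 and 6), with no neighbouring pair of ages called. Across the whole span P60 lay below P6 by 0.75 (limma adjusted p = 0.0123) with overlapping libraries, and by 0.60 without P60 replicates 1 and 2 (adjusted p = 0.0479). P60 and P1, the next pair in the order, differed by 0.12 (limma adjusted p = 0.655), where 67.3% of all features were called. The gene Vsir overlaps Cdh23 on the opposite strand and averaged 0.387 to 2.29 cpm by age, in the same range as Cdh23. Without the strand, reads from the 2 genes cannot be told apart where they overlap.

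Clarin-1, encoded by Clrn1 (Gene ID 229320, chr3:58844028-58885340, minus strand, GRCm38), is a tetraspan membrane protein whose human gene is mutated in Usher syndrome of type 3. Its level was 2.901, 2.53 and 2.42 cpm at E14, 3.68, 4.94 and 4.66 cpm at E17, and 9.08, 5.55, 7.69 and 8.04 cpm at P1. It was 28.5, 25.6 and 28.8 cpm at P6, 12.2, 12.5, 14.0 and 16.5 cpm at P15, and 12.3, 11.1, 11.6 and 10.4 cpm at P28. At P60 it ran from 4.65 to 11.1 cpm with a median of 6.43 cpm. The P6 libraries lay above those of every other age, and the P60 libraries overlapped those of E17, P1 and P28. The mean rose 3.65-fold from P1 to P6 (log2 difference 1.75, SE 0.20, limma adjusted p = 2.11e-08). At P15 it had fallen to 49.9% of its P6 mean (log2 difference -0.96, limma adjusted p = 0.000421) and stood at 41.1% at P28 and 25.7% at P60. The step from P28 to P60 was -0.67 (limma adjusted p = 0.0153) with overlapping libraries, and it was lost without P28 replicate 1 (adjusted p = 0.052) and in the fit of these ages alone (adjusted p = 0.201). Without P60 replicates 1 and 2 it was -0.70 (adjusted p = 0.0025).

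The earlier steps of Clrn1 rested on fewer reads. E17 against E14 gave 0.58 (limma adjusted p = 0.0968), although all E17 libraries were above all E14 libraries. P1 against E17 gave 0.65 (limma adjusted p = 0.0397) and was lost without any one of E17 replicates 1, 2 and 3 or P1 replicates 1, 3 and 4 (adjusted p of 0.0646 to 0.203) and with median-of-ratios scaling (adjusted p = 0.0589). In the order of levels, P28 lay above P1 by 0.54 (limma adjusted p = 0.015) where 60.5% of all features were called, P1 and P60 were not separated (adjusted p = 0.52), and P60 lay above E17 by 0.52 (limma adjusted p = 0.0167, libraries overlapping) where 66.4% were called.

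By step, Pcdh15 was the one Usher gene called from E14 to E17, where 10.6% of all features were called, and Pcdh15 and Clrn1 were called from E17 to P1 beside 9.21% of features. From P1 to P6 all 5 tested genes were higher, beside 38.3% of features called in either direction. Ush1g, which passed the filter through P6 and later alone, had to differ between ages. After P6 calls went in both directions. From P6 to P15 Ush1g was higher and Clrn1 lower, beside 33.4% of features, from P15 to P28 Myo7a was lower, beside 2.72%, and from P28 to P60 Clrn1 was lower, beside 12.9%. All 5 tested genes differed over the 7 ages in limma's F test, with adjusted p from 4.66e-33 for Pcdh15 to 0.00325 for Cdh23, as did 83% of all features. Calls in one gene and not in another do not show that the genes differed, and differences between genes were tested as ratios.

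**Figure D2:**
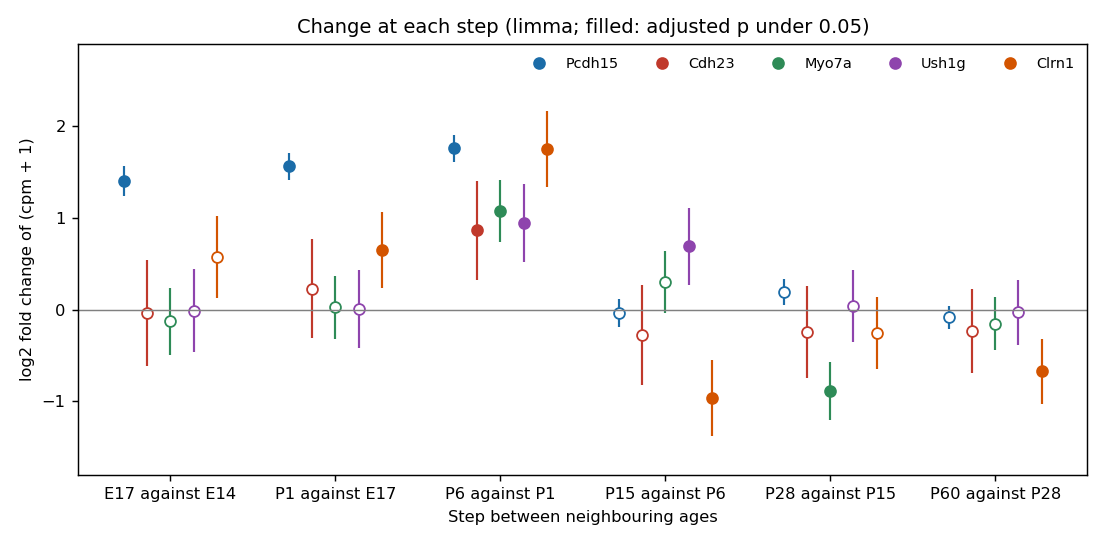
Log2 fold change of (cpm + 1) between each age and the one before for the 5 tested genes, with 95% intervals from limma (vertical lines), filled where the adjusted p was under 0.05 and open elsewhere. The 5 points at the step from P1 to P6 lie between 0.87 and 1.76, and the later steps hold filled points on both sides of 0.

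Per kb of annotated exons, levels could be compared between the genes. At E14 Myo7a stood highest at 2.65 ± 0.14 cpm per kb (SD, n = 3), above Pcdh15 at 0.992 ± 0.11 and Clrn1 at 0.679 ± 0.07. At E17 Pcdh15 (2.69 ± 0.10) and Myo7a (2.41 ± 0.16) were close, with no library of Pcdh15 below any of Myo7a. From P1 on Pcdh15 was highest, with 8.04 ± 0.49 cpm per kb at P1 and 30.6 ± 0.92 at P28. At P6 Clrn1 reached 7.17 ± 0.46 cpm per kb beside 5.34 ± 0.84 for Myo7a, and at P15 Myo7a reached 6.60 ± 0.52 beside 3.58 ± 0.51 for Clrn1, so the 2 changed places. Ush1g, Cdh23 and Ush1c stayed under 1 cpm per kb as means at all ages, at up to 0.796, 0.189 and 0.190. Pcdh15 made up 22.2 ± 1.9% (SD, n = 3) of the summed level per kb of the 6 genes at E14, 63.4 ± 3.4% at P1 and 82.8 ± 3.7% (SD, n = 6) at P60. The highest P60 shares, 85.7% and 86.9%, were those of replicates 1 and 2. These values rest on the union of all annotated exons, of which the retina may use only some.

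**Figure D3:**
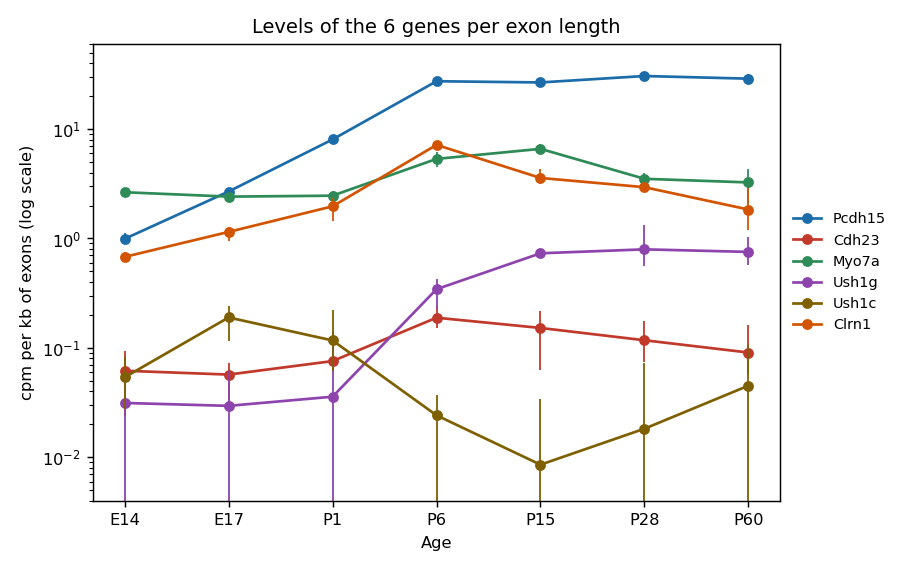
Mean cpm per kb of exons by age for the 6 genes on a log axis, with vertical lines from the lowest to the highest library (cut off at the bottom of the axis where a library had 0 reads). Pcdh15 passes Myo7a between E14 and P1 and ends at 28.9 cpm per kb at P60, while Ush1c, with few reads, has its highest mean at E17.

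Ratios between 2 genes of the same library tested whether they changed by different amounts. Over the 15 pairs, the difference in mean log2 ratio of (cpm + 1) between the 14 mature and the 6 embryonic libraries was tested by a two-sided exact permutation test over 38760 assignments, with p-values adjusted over the 15 pairs. Among the 3 genes well above the floor, Myo7a to Pcdh15 fell by 3.46 and Pcdh15 to Clrn1 rose by 2.83, both at the smallest p the test can give (2.58e-05, adjusted p = 5.53e-05), and Myo7a to Clrn1 fell by 0.62 (exact permutation test, adjusted p = 0.0128). For the tip-link partners, Cdh23 to Pcdh15 fell by 3.56 (exact permutation test, adjusted p = 5.53e-05). Per kb, Pcdh15 was 23.7-fold above Cdh23 at E14 and 366-fold at P60 as means of library ratios. Library values ran from 9.98 to 47.6 at E14 and from 165 to 517 at P60. The highest P60 values, 517 and 513, were those of replicates 1 and 2, and replicates 3 to 6 had 165 to 377. The ratio tests were not repeated with replicates 1 and 2 left out together. Myo7a to Cdh23 differed by 0.11 (exact permutation test, adjusted p = 0.587) and Ush1g to Clrn1 by 0.39 (adjusted p = 0.172). In all, 13 of 15 pairs passed, and the values of pairs with Ush1g, Ush1c or Cdh23 moved with the pseudocount. With a pseudocount of 0.1, Pcdh15 to Ush1g went from 2.44 to 0.33 (adjusted p = 0.343), Cdh23 to Clrn1 from -0.73 to -0.58 (adjusted p = 0.123) and Ush1g to Clrn1 to 2.34 (adjusted p = 4.84e-05).

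Among 13579 features with a Gene ID and a mean of at least 5 cpm, the pattern of Pcdh15 over the 27 libraries was most like those of Nrl, the transcription factor of rod photoreceptors (Pearson r of log2(cpm + 1), 0.996), Rp1, a protein of the photoreceptor axoneme (0.996), and Gm38717 (0.994). Nrl averaged 0.964 cpm at E14, 40.5 at P1, 299.5 at P6 and 379.9 at P60. Ush1g was most like Pde6a, a subunit of the rod phosphodiesterase (0.963), Nyx, a protein of ON bipolar cell dendrites (0.963), and Rufy3 (0.962). Clrn1 was most like Dcun1d3 (0.932), Pdk2, a mitochondrial kinase (0.931), and Dlc1 (0.929), all 3 of which had their highest age mean at P6. Myo7a was most like Supt16, a subunit of a histone chaperone (0.922), Lrp2, the endocytic receptor megalin (0.907), and Kirrel (0.898), all highest at P15. Cdh23 had no partner above 0.794 (Tmem9, then Stag3 at 0.781 and 2610044O15Rik8 at 0.766). Ush1c, in counts too sparse for a pattern, had Ust (0.829), Nfkb1 (0.791) and Dcdc5 (0.782). These r values describe 27 libraries that share their ages and sequencing, and genes that follow age alike will correlate.

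Sequence before the start of transcription was available in RefSeq (GRCm38.p6) for 5 of the 6 genes, in 6 windows, 2 of them for Myo7a. The 250 bases of Pcdh15 and of the upstream start of Myo7a are shown because their genes had different time courses, one rising with the rod gene Nrl and one highest at P15. Capitals mark the half-site of the rod factor NRL (TGCTGA, or TCAGCA on the other strand) and the TATA box (TATAAA). The Pcdh15 window is chr10:73821617-73821866 on the plus strand, which lies inside the gene as GENCODE annotates it, and the Myo7a window is chr7:98119494-98119743 on the minus strand.
Pcdh15: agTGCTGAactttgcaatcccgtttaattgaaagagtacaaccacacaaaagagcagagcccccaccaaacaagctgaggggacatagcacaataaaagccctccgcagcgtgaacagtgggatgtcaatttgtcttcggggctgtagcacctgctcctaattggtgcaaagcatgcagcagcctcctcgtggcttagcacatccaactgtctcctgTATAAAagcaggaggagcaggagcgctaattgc
Myo7a: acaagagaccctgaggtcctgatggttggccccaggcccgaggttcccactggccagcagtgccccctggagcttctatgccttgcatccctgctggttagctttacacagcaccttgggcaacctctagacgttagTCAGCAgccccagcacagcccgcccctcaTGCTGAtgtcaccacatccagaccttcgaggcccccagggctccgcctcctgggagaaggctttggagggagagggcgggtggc
Motifs were searched on both strands in these 250 bases and in all 32851 windows of the same length in the table. Pcdh15 held 1 NRL half-site (248 bases before the start) and 1 TATA box (33 bases before it), Myo7a held 2 NRL half-sites (at 113 and 84 bases) and 2 GC boxes (GGGCGG, at 94 and 11 bases), and Ush1c held 1 GC box. The second Myo7a window, Cdh23 and Clrn1 held none of the 5 motifs searched. The NRL half-site occurs in 16.1% of all windows, the TATA box in 12.4%, the GC box in 32.7%, the E-box CAGCTG in 13% and the core site of the photoreceptor factor CRX (TAATCC) in 6.25%. Neither of the last 2 occurred in the windows of these genes. A match is a description of letters and shows no binding.

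Of 8 other genes tied to Usher syndrome or related disorders, 5 were higher, 2 lower and 1 not called in mature against embryonic retina, with a median log2 difference of 1.02 beside -0.06 over all features tested. Whrn, which encodes the scaffold whirlin, was at 57.7 ± 1.8 cpm (SD, n = 3) at E14 and at 186 ± 43 cpm (SD, n = 6) at P60 (1.47 between mature and embryonic, limma adjusted p = 7.66e-15). Arsg, a lysosomal sulfatase, rose from 1.89 to 29.2 cpm (3.26, limma adjusted p = 2.37e-23). Cep250, a centrosomal protein, differed by 1.17 and Abhd12, a lipid hydrolase, by 0.88 (limma adjusted p = 7.38e-12 and 3.09e-11). Both rose at the step from P6 to P15 (adjusted p = 0.00168 and 0.0124) and neither was called from P1 to P6.

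Adgrv1, a very large adhesion receptor that works with whirlin at the base of the outer segment and of stereocilia, had a different course. It stood at 629 ± 11 cpm (SD, n = 3) at E14, 669.8 ± 31 at E17 and 635 ± 64 (n = 4) at P1 and fell to 307 ± 11 (n = 3) at P6. At P15 it was back at 418 ± 20 (n = 4), and P28 and P60 had means of 554 ± 15 (n = 4) and 793 ± 127 (n = 6). The fall at P6 was -1.04 (limma adjusted p = 1.07e-10), with the 3 later steps at 0.44, 0.41 and 0.50 (limma adjusted p = 0.000421, 0.00615 and 0.000712). From P1 to P6 it therefore moved against the 5 tested Usher genes above. Pdzd7, a scaffold related to whirlin, fell at the same step (-0.56, limma adjusted p = 0.0328) and rose from P28 to P60 (0.56, limma adjusted p = 0.0371). In Whrn, Adgrv1, Cep250 and Pdzd7 the 2 lowest P60 libraries were replicates 1 and 2. Without them the P60 means were 213 ± 12, 863 ± 83, 219 ± 18 and 8.35 ± 0.87 cpm (SD, n = 4), and all 4 genes were higher at P60 than at P28 (limma adjusted p = 1.15e-06, 3.37e-09, 0.00155 and 0.000682), including Cep250, which had not been called at that step with all libraries (adjusted p = 0.295). Cib2, a calcium-binding protein of the hair bundle, averaged 2.41 to 2.699 cpm at all ages (mature against embryonic 0.01, limma adjusted p = 0.969).

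**Figure D4:**
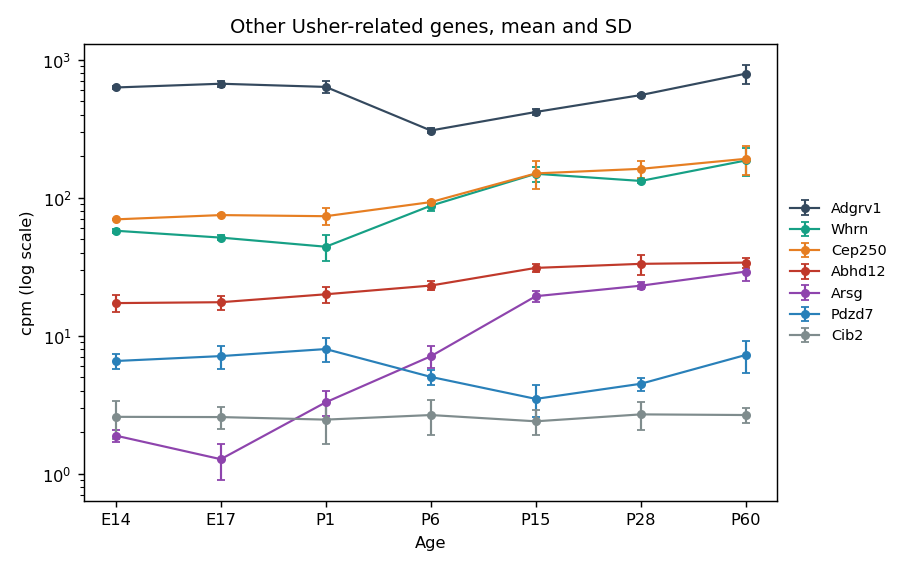
Mean cpm by age (log axis) of 7 other genes tied to Usher syndrome or related disorders, with error bars of 1 SD. Adgrv1 and Pdzd7 dip between P1 and P28, Arsg climbs from 1.28 cpm at E17 to 29.2 cpm at P60, and Cib2 stays between 2.41 and 2.699 cpm.

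Other genes of the hair bundle were mixed. Of 16, 14 were in the table and 9 were tested, with 5 higher and 3 lower in mature retina and a median of 0.38. Strc, Tmie and Eps8l2, 3 of the 5, had no library at 1 cpm from E14 to P1 and passed the filter through later ages alone, so that they had to differ, and neither the count nor the median is read as support for anything. Eps8, which caps actin filaments at stereocilia tips, stood at 4.95 ± 0.92 cpm (SD, n = 3) at E14 and at 103 ± 5.7 cpm (SD, n = 4) at P15, and its step from P1 to P6 was the largest (2.52, limma adjusted p = 3.34e-19). Strc, the extracellular protein stereocilin, was at 0 reads in all E14 libraries and averaged 2.08 to 2.56 cpm from P15 on. Espn, which bundles actin, went the other way, with 100.01 ± 7.3 cpm (SD, n = 3) at E17, 107 ± 9.4 (n = 4) at P1 and 31.9 ± 1.2 (n = 3) at P6 (P6 against P1 -1.71, limma adjusted p = 2.53e-11). Of the 5 genes of the intestinal brush border complex, in which harmonin and a myosin VII also take part, 4 were in the table and 2 tested. Calml4, a light chain of that complex, was highest at P6 like Clrn1, at 4.78 ± 0.74 cpm (SD, n = 3), with 1.25 at the step from P1 (limma adjusted p = 8.38e-06). Anks4b, the relative of Sans in that complex, was highest at P1 (6.85 ± 0.38 cpm, SD, n = 4, up 1.48 from E17, limma adjusted p = 0.000115) and had fallen by P15 (P15 against P6 -0.92, limma adjusted p = 0.00547).

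Markers of the other cell types moved as large blocks over the same ages. All 12 photoreceptor markers were higher and all 8 progenitor markers lower in mature retina, with medians of 7.67 and -6.47. Of the Müller glia markers 6 of 8 and of the inner retina neuron markers 8 of 11 were higher. Of all 31760 features tested, 75.4% were called in either direction, 11115 of them higher and 12836 lower. Some tested inner retina neuron and blood markers had no library at 1 cpm from E14 to P1 and passed the filter through later ages alone. Counts of those lists are therefore not read as support for anything. Of the lens markers 3 of 7 were in the table, the 2 tested had limma adjusted p of 0.402 and 0.0674, and 2 of the 4 tested blood markers were higher. From P1 to P6, where Clrn1 and Cdh23 reached their highest means, all 4 tested blood markers were higher, and the summed level of the 6 blood markers averaged 13.6 cpm at P1 and 44.99 cpm at P6, its highest mean, with 39.6 to 50.3 cpm over the P6 libraries. The part of blood and of cell type proportions in the changes of the Usher genes was not tested.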

How the data were processed

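RNA-seq libraries were prepared by the authors with the SMARTer total RNA kit from whole C57BL/6J mouse retinas and aligned to mm10 (GRCm38) with STAR. The deposited table holds cpm values computed by the authors, in which each feature is scaled by the reads of its library, with one value per feature and library. The annotation used for counting and the use of strand are not given in the sources used here. Low values were whole multiples of 1 read in each library, so reads could be recovered (100% of values within 0.05 read), with totals of 7077781 to 11332323 counted reads. Of 38168 features, 14905 have no Gene ID. Libraries were grouped by age as labelled.

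The scale of analysis was log2(cpm + 1). Of the features, 31760 had at least 1 cpm in 3 or more libraries and were tested with limma 3.58.1 (R 4.3.3), fitting age over the 27 libraries with a trend of the variance on the mean. The mature against embryonic contrast took the mean of the age means, giving each age equal weight. All tests were two-sided, p-values were adjusted by the method of Benjamini and Hochberg over every tested feature, and calls were made at an adjusted p under 0.05. Ratios of 2 genes were tested by exact permutation over libraries. Exact intervals of read ratios and a floor of 3 reads cover counting error only. Loci and exon lengths came from GENCODE vM21 and promoters from RefSeq. Other steps used Python 3.11.15 with scipy 1.17.1 and pandas 2.3.3, and figures matplotlib 3.10.9. No copied library was found (chi-square per degree of freedom at least 1.72 between libraries of an age). The tests were tried on simulated data before use.

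The genes named were the 6 members, genes of the related lists, at most 3 per list by size of change among those called, and the 3 features most like each member. The members and lists were chosen with earlier results of these data known. Results of some genes are counted in the lists but not given singly. Steps shown for Adgrv1, Calml4, Anks4b and Espn were picked after their values were seen. Alternatives were a pseudocount of 0.1, no filter, a filter at a mean of 10 cpm, median-of-ratios scaling, a replicate block, edgeR 4.0.16 and DESeq2 1.42.0 on recovered reads, fits with just the compared ages, a minimum log2 fold change of 1, summed entries of each symbol and leaving out each library in turn. EdgeR without E14 replicate 1, whose read step could not be judged automatically, and limma without P60 replicates 1 and 2 were added after the data were seen.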

Additional observations from a re-analysis of the deposited data

Results flagged for a closer look

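Among the 24 groups of 4 to 6 libraries examined for the 6 genes, 5 had 1 library far from the others by Dixon's criterion. Its rate by chance, about 1 group of 20, holds for normally spread values and not for counts of a few reads. For Pcdh15 at P1, replicate 3 had 208.6 cpm against 183.4 to 187.6 cpm in the other 3 libraries. For Ush1g at P28, replicate 2 had 4.353 cpm (31 reads) against 1.865 to 2.165 cpm in the others. The remaining 3 rest on 1 to 4 reads in 1 library beside 0 in all others, where the criterion is met by construction. Ush1g at P1 had 0.4732 cpm (4 reads) in replicate 4 and 0 in the other libraries, Ush1c at P15 had 0.1317 cpm (1 read) in replicate 2 and 0 in the others, and Ush1c at P28 had 0.2808 cpm (2 reads) in replicate 2 and 0 in the others. Ush1g and Ush1c at P28 were thus both highest in replicate 2. The causes were not tested.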

How the results depend on the processing

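The direction of each called change in mature against embryonic retina and between neighbouring ages held under every alternative run. Other pairs of ages were run again only where they included P60, and only without P60 replicates 1 and 2. Ratios of 2 genes were run again only with a pseudocount of 0.1 and without each library in turn. Counts of called Usher genes moved as follows. With a filter at a mean of 10 cpm, which leaves 3 of the genes to test, counts were 3 in mature against embryonic retina, from P1 to P6 and over the 7 ages, where 5 had been called, and 1 from P6 to P15, where 2 had been. With a minimum log2 fold change of 1 they were 3 in mature against embryonic retina, 1 at P1 against E17, 3 at P6 against P1 and 0 at each of the 3 later steps. From E14 to E17 the count went from 1 to 2 with no filter, in the fit of the compared ages alone and with a replicate block. From E17 to P1 it went from 2 to 1 with median-of-ratios scaling. From P6 to P15 it went from 2 to 1 with a pseudocount of 0.1 and with edgeR, with or without E14 replicate 1. In the fits of the compared ages alone it was 2 at P28 against P15 and 0 at P60 against P28, where 1 had been called in each. These fits also called Myo7a at P15 against P6 (0.31, adjusted p = 0.0266 in limma), giving 3 there. Leaving out 1 library gave 1 to 2 calls at P1 against E17, 4 to 5 at P6 against P1, 1 to 2 at P15 against P6 and 0 to 1 at P60 against P28. Replicate numbers did not pair the libraries, since 3 of 69 same-numbered pairs correlated above 0.1 and 7 of 27 libraries correlated best with their own number, and the replicate block changed only Clrn1 from E14 to E17 (0.58, adjusted p = 0.0436 in limma). With no filter Ush1c was lower in mature retina by -0.41 (adjusted p = 0.000556 in limma). Leaving out P60 replicates 1 and 2 together, chosen after seeing the data, also gave 3 from P6 to P15 and changed no other count. Depth limits Ush1c, Ush1g and Cdh23, at no more than 31 reads in any library. The causes were not tested where a smaller set of genes or libraries does not give them.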
